A study of Mus musculus with 4 samples.

Results

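Transcripts of 10 receptors that deliver or accompany costimulation in T cells were followed in activated CD8+ T cells. They were chosen by gene name: Cd28, Icos, Tnfrsf4, Tnfrsf9, Tnfrsf18, Tnfrsf1b, Cd27, Cd226, Cd69 and Cd44. All 10 stood on 1 row each of a table of 53465 genes, and all 10 were among the 13528 genes that passed a filter on low counts. Cd28 and Icos belong to the CD28 family, and Tnfrsf4, Tnfrsf9, Tnfrsf18, Tnfrsf1b and Cd27 to the tumour necrosis factor (TNF) receptor superfamily. Cd226 (an immunoglobulin receptor), Cd69 (a C-type lectin) and Cd44 (the hyaluronan receptor) belong to neither family and are included as costimulatory or activation receptors.

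RNA was sequenced from CD8+ T cells purified from the spleens of wild-type (WT) mice and of mice without PP2Cm (PP2Cm-/-), the mitochondrial phosphatase, encoded by Ppm1k, that activates branched-chain ketoacid dehydrogenase. All cells of the 4 libraries, 2 labelled WT and 2 labelled PP2Cm KO, had been activated for 24 h by bead-bound antibodies against CD3 and against CD28 itself, so no value here is from resting cells. The labels give no strain, age or sex of the mice and do not describe the knockout allele. The labels conflict: the genotype field and title of each sample name 1 genotype, and its description code begins with the letters of the other. Here a library is labelled WT or labelled KO by its title, which its genotype field matches. If the codes and not the titles were right, every direction below would be the opposite.

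The targeted gene, Ppm1k, went against the labels. It had 102 and 94 counts under the WT label against 157 and 206 under the KO label, and both KO-labelled libraries lay above both WT-labelled ones after scaling to counts per 1000000 (CPM). Its log2 fold change was 0.97 (SE 0.23, adjusted p = 0.186 by edgeR and 0.109 by DESeq2). With 1 library left out the value ran from 0.73 to 1.24. Gene-level counts hold no exon positions. Library totals lay between 12967251 and 17316284 counts. Of the 10 transcripts fixed as marks of CD8 T cell identity all were counted, and Cd8a alone had between 7055 and 8883 counts per library. Summed markers of CD4 and regulatory T cells, B cells, erythroid cells and platelets, and stromal and endothelial cells were lower in both KO-labelled libraries than in both WT-labelled ones, as was the CD8 identity sum, and those of myeloid, dendritic and NK cells overlapped. The stromal sum was nearly all Pecam1, with 4 of its 7 genes at 0 in all libraries. The B cell sum was nearly all Ighm: without it 19.5 and 20.3 CPM remained under the WT label against 17.5 and 11.6 under the KO label. The NK cell sum was nearly all Eomes: without it 1.92 and 6.30 CPM remained against 6.24 and 3.32. The CD4 and regulatory T cell sum was lower through Cxcr5: without that gene it was higher in both KO-labelled libraries. Their part in the receptor values was not tested, and in such bulk samples fewer cells of a type and less RNA per cell cannot be told apart.

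A T cell needs a signal through its antigen receptor and a second, costimulatory signal to divide and become an effector. CD28, present on resting cells, binds CD80 and CD86 and recruits phosphatidylinositol 3-kinase (PI3K) and adaptor proteins to its short tail, and ICOS, induced by activation, binds ICOS ligand and signals mostly through PI3K. Receptors of the TNF family are bound by trimeric ligands and recruit TRAF adaptors, which lead to NF-kappaB and to survival. OX40 (Tnfrsf4), CD137 (Tnfrsf9) and GITR (Tnfrsf18) are raised by activation, whereas CD27 is already present on naive cells and is lost as effector cells mature.

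CD28 and ICOS are told apart by the tyrosine motif of their tails, YMNM in CD28 and YMFM in ICOS, of which the asparagine lets CD28 also bind the adaptor GRB2. Transcripts of Cd28 and Icos differed in opposite directions in these libraries, with adjusted p of 0.419 and 0.243 by edgeR. The coding bases around the motif are shown, and any link to that difference was not tested. They were read from the GENCODE M21 transcripts (GRCm38), 5′ to 3′ on the plus strand of chromosome 1, with the 4 codons of the motif in capitals.
Cd28, exon 4 of 4, chr1:60769681-60769716: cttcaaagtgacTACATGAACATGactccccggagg
Icos, exon 4 of 5, chr1:60995548-60995583: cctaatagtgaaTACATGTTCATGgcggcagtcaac
The motif starts at residue 189 of 218 in CD28 and at residue 181 of 200 in ICOS. Counted from 1 at the first capital, Cd28 and Icos differ within the motif by A7T and A8T, both in the codon that differs between asparagine and phenylalanine.

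Between the labels, differences of the 10 receptors were small. Icos, Tnfrsf4, Cd226, Cd69 and Cd44 were higher under the KO label, and Cd28, Tnfrsf9, Tnfrsf18, Tnfrsf1b and Cd27 lower, with log2 fold changes from −0.58 for Cd27 to 0.48 for Cd226, so that 5 of 10 were positive beside 48.1% of all genes tested. By the quasi-likelihood test of edgeR, with p adjusted over all genes tested and a threshold of 0.05, 0 of 10 receptors passed, beside 0.207% of all genes tested. DESeq2 and limma on log2(FPKM + 1) also called 0. Before adjustment, p lay under 0.05 in 3 of 10, beside 12.9% of all genes: in Icos, which was higher (5.7% of all genes), and in Tnfrsf18 and Cd27, which were lower (7.23%). The median log2 fold change of the 10 was 0.02, and that of all genes tested −0.01. In 5 of 10 receptors the labels did not overlap, with both KO-labelled libraries above both WT-labelled ones for Icos and Tnfrsf4 and below them for Cd28, Tnfrsf18 and Cd27. Among all genes tested this held for 44.9%, so the share among the receptors was near the background. Replicates of 1 label differed by more than counting error gives: chi-square divided by its degrees of freedom was 19.2 in the WT-labelled pair and 13.8 in the KO-labelled pair.

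**Figure D1:**
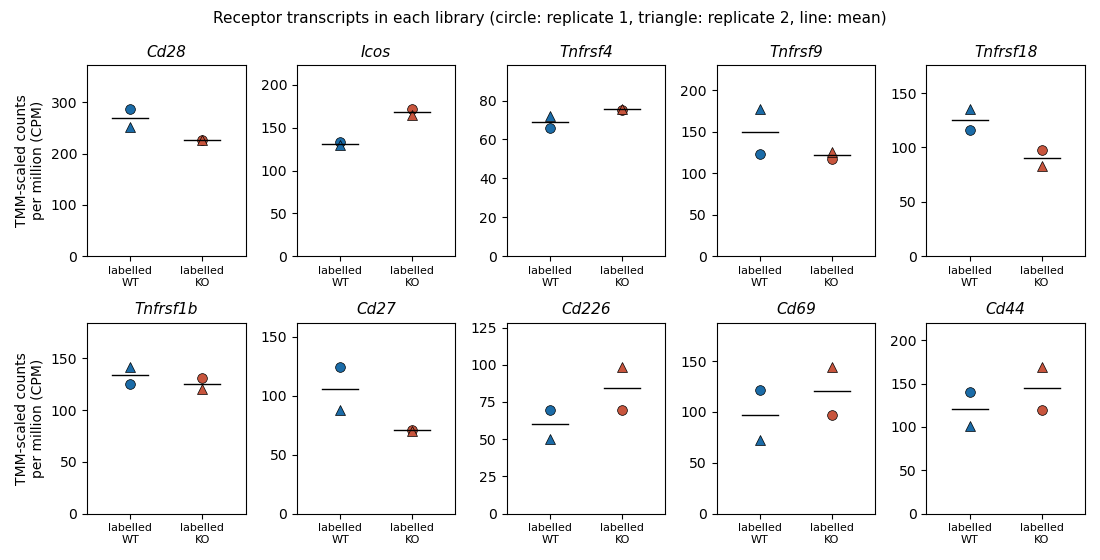
TMM-scaled CPM of the 10 receptor transcripts (y axis, from 0) in the WT-labelled (blue) and KO-labelled (red) libraries; circles are replicate 1, triangles replicate 2, lines the mean of 2. Both red points of Icos, at 172 and 165 CPM, lie above both blue points, while the points of Cd69 and Cd44 of the 2 labels overlap.

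Cd28 was the most counted of the 10. It had 287 and 251 CPM under the WT label against 227 and 226 CPM under the KO label. Both KO-labelled libraries lay below both WT-labelled ones, and they differed from each other by less than the labelled WT pair did. The log2 fold change was −0.25 (SE 0.11, 95% limits −0.51 and 0.02, adjusted p = 0.419, edgeR), or 1.19-fold lower, from 269 ± 24.9 to 227 ± 0.709 CPM (SD, n = 2 each).

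Icos had 133 and 130.0 CPM under the WT label against 172 and 165 CPM under the KO label. The labels did not overlap, and within each label the replicates lay close together. The log2 fold change was 0.35 (SE 0.10, 95% limits 0.11 and 0.59), or 1.28-fold higher, with an adjusted p of 0.243 by edgeR. It was the steadiest of the 10 when 1 library at a time was left out, between 0.32 and 0.39.

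The 5 receptors of the TNF superfamily did not share a direction. Cd27, the receptor of CD70, differed most. It had 125 and 87.8 CPM under the WT label against 71.4 and 70.3 CPM under the KO label. Both KO-labelled libraries were lower than both WT-labelled ones, and labelled WT replicate 1 stood above the other 3. The log2 fold change was −0.58 (SE 0.17, 95% limits −0.996 and −0.17), or 1.50-fold lower, with an adjusted p of 0.256 by edgeR. Its size depended on the labelled WT pair: without labelled WT replicate 2 it was −0.81 and passed the threshold (adjusted p = 0.0183), and without labelled WT replicate 1 it was −0.30 (adjusted p = 0.397).

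Tnfrsf18, which encodes GITR, was also lower. It had 116 and 135 CPM under the WT label against 97.6 and 82.7 CPM under the KO label. The labels did not overlap. The log2 fold change was −0.48 (SE 0.14, 95% limits −0.80 and −0.16), or 1.39-fold lower, with an adjusted p of 0.238 by edgeR, the lowest of the 10. The antisense gene Gm16008 overlaps its exons on the opposite strand and had 4 to 8 counts per library, against 1194 to 2294 for Tnfrsf18.

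Tnfrsf4, which encodes OX40 and lies beside Tnfrsf18, was nearly level. It had 66.1 and 72.2 CPM under the WT label against 75.3 and 75.5 CPM under the KO label. Although the labels did not overlap, the log2 fold change was only 0.12 (SE 0.12, adjusted p = 0.719, edgeR). Tnfrsf9, which encodes CD137, had 123 and 177 CPM under the WT label against 118 and 126 CPM under the KO label. Only labelled WT replicate 2 stood apart: the log2 fold change was −0.30 (SE 0.18, adjusted p = 0.531) with all libraries and −0.01 without it, by edgeR. Tnfrsf1b, which encodes the second TNF receptor, had 125 and 142 CPM against 131 and 120.0 CPM, and the labels overlapped. Its log2 fold change of −0.09 (SE 0.12) was the smallest of the 10 and came to 0.00 without labelled WT replicate 2.

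Cd226, Cd69 and Cd44 were all higher on average under the KO label, and in all 3 the labels overlapped. Each was highest in labelled KO replicate 2 and lowest in labelled WT replicate 2, which was also the library with the largest total. Cd69, which holds back the exit of activated cells from lymphoid tissue by binding the receptor S1PR1, had 121 and 72.6 CPM under the WT label against 97.3 and 144 CPM under the KO label. Cd44, which rises on antigen-experienced cells, had 141 and 101 CPM against 120 and 169 CPM. Cd226, which binds the ligands CD155 and nectin-2, had 69.9 and 50.4 CPM against 69.6 and 98.6 CPM. For Cd69 and Cd44 the replicates thus lay further apart than the means of the labels did, and for Cd226 about as far. The log2 fold changes were 0.32 (SE 0.27) for Cd69, 0.26 (SE 0.21) for Cd44 and 0.48 (SE 0.22) for Cd226, with adjusted p values of 0.675, 0.659 and 0.420 by edgeR. They were 0.01, −0.0047 and 0.22 without labelled KO replicate 2, and −0.0061, 0.04 and 0.27 without labelled WT replicate 2.

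**Figure D2:**
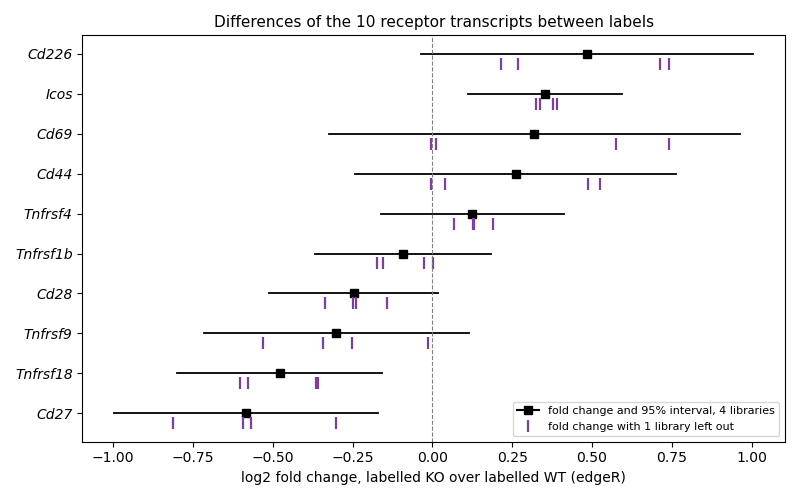
Log2 fold changes of the 10 receptors, labelled KO over labelled WT (x axis), with their 95% intervals as black lines, and below each in purple the 4 values with 1 library left out. The purple marks of Icos lie within 0.32 and 0.39, whereas those of Cd69 spread from −0.01 to 0.74.

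How abundant the receptors were relative to each other was read per gene length. By the deposited FPKM (counts per kilobase and per 1000000 counts of the library), as mean ± SD of 4 libraries, Icos was first at 42.6 ± 6.35, followed by Cd28 at 36.4 ± 4.16, Tnfrsf4 at 35.5 ± 2.28, Tnfrsf1b at 33.0 ± 1.87, Tnfrsf9 at 31.7 ± 6.03, Tnfrsf18 at 27.9 ± 5.53, Cd226 at 26.8 ± 7.79, Cd27 at 20.9 ± 6.03, Cd69 at 14.4 ± 4.29 and Cd44 at 10.6 ± 2.51. The order is of means over both labels: Icos was first in both KO-labelled libraries, but below Cd28 in both WT-labelled ones, at 38.00 and 36.28 FPKM against 42.36 and 36.32. The ranges of all neighbours in that order overlapped, so no step of it stood out beyond the spread of the libraries. All 10 ranked in the upper part of the genes tested, Icos at the 89.8th percentile and Cd44 at the 67.3rd. Among the neighbours, Cd69 alone was above the next receptor, Cd44, in all 4 libraries.

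That order rests on the gene lengths used. Count and FPKM imply a length of 7.58 kb for Cd69, whose longest protein-coding transcript in the GENCODE M21 basic set has 1.69 kb. For Tnfrsf18 they imply 3.85 kb against 1.19 kb, for Cd44 12.5 kb against 5.61 kb, for Cd27 4.22 kb against 1.56 kb, and for Cd226 2.69 kb against 4.39 kb. All exons together cover 6.51 kb for Cd69, 1.52 kb for Tnfrsf18, 6.78 kb for Cd44, 2.33 kb for Cd27 and 4.725 kb for Cd226. Which transcripts gave the counts was not tested. Per kilobase of that longest coding transcript, an alternative chosen after the data were seen, Tnfrsf18 came first at 90.4 ± 17.9 and Tnfrsf4 second at 70.1 ± 4.49, Cd69 moved from the ninth place to place 3 at 64.7 ± 19.3, Icos moved to the seventh at 46.2 ± 6.88, and Cd226 was last at 16.5 ± 4.78 (SD, n = 4). Fold changes between labels do not depend on the length.

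**Figure D3:**
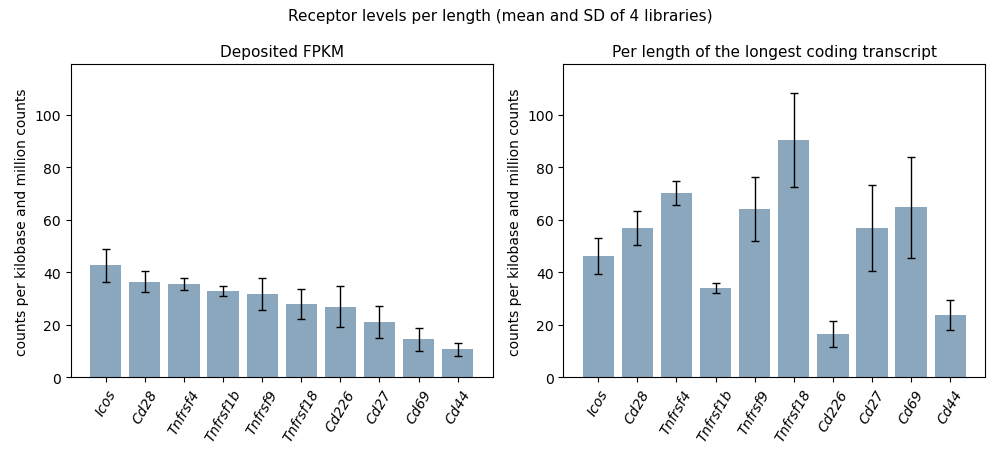
Receptor levels in counts per kilobase and per 1000000 counts (y axis, from 0) as bars with the mean and SD of 4 libraries, by the deposited FPKM (left) and per length of the longest coding transcript (right), in the same order. Icos, highest on the left at 42.6, is exceeded on the right by Tnfrsf18 at 90.4.

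Several of these genes are neighbours in the genome, and their counts can be compared within a library, where library scaling cancels. Cd28 (chr1:60716800-60773359), Ctla4 (chr1:60887000-60915832) and Icos (chr1:60977927-61000320) follow each other on the plus strand of chromosome 1. Per count of Cd28 there were 0.464 and 0.517 counts of Icos under the WT label against 0.755 and 0.728 under the KO label, a ratio 1.51-fold higher. For Ctla4, the inhibitory receptor that competes with CD28 for CD80 and CD86, the ratio went the other way, with 0.664 and 0.611 counts per count of Cd28 against 0.483 and 0.474. The 3 genes of this cluster thus differed unequally between labels. Of 5 such ratios, chosen after their values were seen, each has an exact two-sided permutation p of at least 0.333, the smallest that this test allows with 2 against 2 libraries, so none can pass it.

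Tnfrsf4 (chr4:156013843-156016612) and Tnfrsf18 (chr4:156026164-156028895) lie next to each other on the plus strand of chromosome 4. Tnfrsf4 had 0.570 and 0.534 counts per count of Tnfrsf18 under the WT label against 0.772 and 0.913 under the KO label, a ratio 1.52-fold higher. These adjacent genes differed unequally, though neither passed the threshold. The 250 bases before the RefSeq start site of each (GRCm38.p6) are shown, and their part in that difference was not tested. They are printed 5′ to 3′, with matches to GGAAA on either strand, the core bound by the activation factor NFAT, in capitals.
Tnfrsf4, chr4:156013445-156013694: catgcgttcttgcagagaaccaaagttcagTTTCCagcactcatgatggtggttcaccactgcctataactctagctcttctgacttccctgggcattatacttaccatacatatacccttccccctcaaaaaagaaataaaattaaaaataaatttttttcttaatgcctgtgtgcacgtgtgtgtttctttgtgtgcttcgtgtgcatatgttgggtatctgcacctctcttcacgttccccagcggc
Tnfrsf18, chr4:156026072-156026321: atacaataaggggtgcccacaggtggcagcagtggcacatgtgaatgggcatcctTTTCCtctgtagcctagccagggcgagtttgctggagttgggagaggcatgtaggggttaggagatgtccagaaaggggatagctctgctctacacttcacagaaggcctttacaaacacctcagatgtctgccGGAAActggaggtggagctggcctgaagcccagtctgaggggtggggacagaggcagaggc
The RefSeq start sites are not the starts of the gene spans given above. The window of Tnfrsf4 ends before its span begins at 156013843. That of Tnfrsf18 runs into its span, which begins at 156026164, and the match nearer its start site lies inside that span. The window of Tnfrsf4 is 42.8% G and C and that of Tnfrsf18 56.0%. Windows for 6 of the 10 receptors were matched by symbol, 7 windows in all. GGAAA stands in 6 of the 7 and in 55.6% of the 32851 RefSeq promoter windows of this length. The NF-kappaB consensus was found in 1 of the 7, one of Tnfrsf9, and in 7.25% of all windows. The AP-1 motif, TGACTCA or TGAGTCA, was found in 1, also of Tnfrsf9, and in 4.46% of all. Such matches describe the letters and say nothing of binding.

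Cd226 shares its ligands with the inhibitory receptors encoded by Cd96 and Tigit. Although Cd226 itself varied within labels, its ratio to Cd96 did so little: 1.31 and 1.39 under the WT label against 2.70 and 2.90 under the KO label, 2.07-fold higher. Cd96 had 53.3 and 36.3 CPM against 25.7 and 34.0 CPM, and its own log2 fold change was −0.58 (SE 0.23, adjusted p = 0.367, edgeR). The ratio of Cd226 to Tigit did not separate the labels, with 3.03 and 2.35 against 2.71 and 2.62. NK cells also express Cd226: their defining genes Ncr1 and Klrb1c had between 0 and 20 and between 4 and 28 counts per library.

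**Figure D4:**
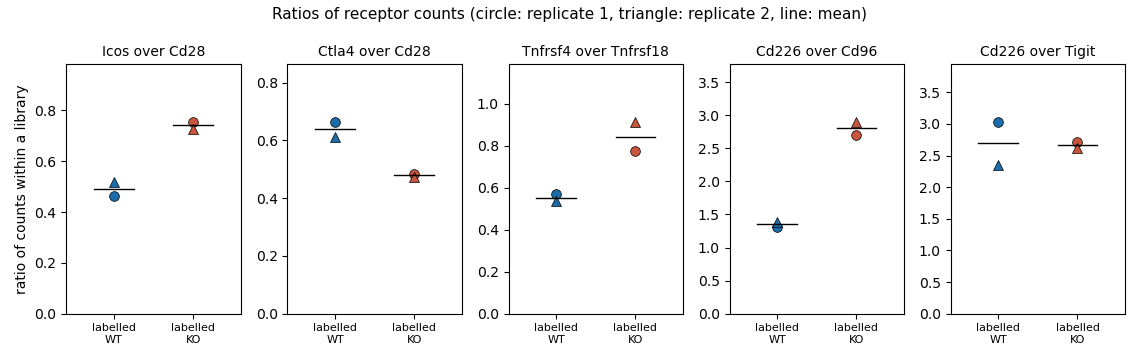
Ratios of counts of 2 genes within a library (y axes, from 0) for the WT-labelled (blue) and KO-labelled (red) libraries; circles are replicate 1, triangles replicate 2, lines the mean of 2. The ratio of Cd226 to Cd96 lies at 1.31 and 1.39 against 2.70 and 2.90, while that of Cd226 to Tigit overlaps.

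The ligands of these receptors were mostly scarce. Of 11, 10 were counted and 9 tested; 3 were higher and 6 lower under the KO label, and 0 passed the threshold by edgeR, with 2 higher and 0 lower before adjustment (p under 0.05), beside 5.7% and 7.23% of all genes. DESeq2 called 1, Tnf, beside 2.09% of all genes. Lta, which encodes lymphotoxin alpha and was the most counted, had 803 and 1701 counts under the WT label against 1783 and 1818 under the KO label. Its log2 fold change was 0.68 (SE 0.22, adjusted p = 0.276, edgeR) and 1.08 without labelled WT replicate 2, when it passed (adjusted p = 0.00685), but 0.38 without labelled WT replicate 1 (adjusted p = 0.258).

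Tnf had 26.7 and 27.6 CPM under the WT label against 40.1 and 43.9 CPM under the KO label. Its labels did not overlap, and the log2 fold change was 0.63 (SE 0.15), with an adjusted p of 0.177 by edgeR and 0.0408 by DESeq2. The ligands of OX40 and CD137, Tnfsf4 and Tnfsf9, were lowest in labelled KO replicate 1, at 6.54 and 2.18 CPM, and ranged from 13.1 to 15.0 and from 4.71 to 5.15 CPM in the other 3 libraries. Pvr, which encodes the CD226 ligand CD155, had 17.7 to 25.6 CPM. Cd80 had 35 to 89 counts per library, Cd86 24 to 46, Icosl 23 to 45 and Cd70 7 to 22. Nectin2 had 2 or 3 counts per library, and Tnfsf18 was at 0 in all 4, which allows up to 0.231 CPM by counting error alone.

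Of 6 other receptors of the CD28 and CD226 networks, 5 were tested and 0 passed by edgeR. Before adjustment (p under 0.05), 2 were higher and 2 lower, beside 5.7% and 7.23% of all genes, and DESeq2 called 2, Btla and Ctla4, beside 2.09%. Btla, an inhibitory receptor that binds the TNF receptor HVEM, had 48.0 and 41.7 CPM under the WT label against 85.2 and 120 CPM under the KO label. Its log2 fold change was 1.20 (SE 0.19, adjusted p = 0.0777 by edgeR and 6.4e-06 by DESeq2). It passed in edgeR without labelled WT replicate 1 (adjusted p = 0.0110), without labelled WT replicate 2 (0.0253) and without labelled KO replicate 1 (0.0177), with the replicate block (0.0146) and with no low-count filter (0.0157). Without labelled KO replicate 2 the log2 fold change was 0.93 (adjusted p = 0.298, edgeR). Ctla4 had 190.2 and 154 CPM against 110 and 107 CPM, a log2 fold change of −0.66 (SE 0.13, adjusted p = 0.122 by edgeR and 0.00691 by DESeq2). With 1 library left out the value for Ctla4 ran from −0.81 to −0.50.

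Among 22 other members of the TNF receptor superfamily, 15 were tested and 0 passed by edgeR or DESeq2. The median log2 fold change was −0.11, with 1 higher and 2 lower before adjustment (p under 0.05), beside 5.7% and 7.23% of all genes. Tnfrsf21, which encodes death receptor 6, had a log2 fold change of 0.71 (SE 0.26, adjusted p = 0.330) and Tnfrsf26 of −0.61 (SE 0.19, adjusted p = 0.274) by edgeR. Ltbr encodes the lymphotoxin beta receptor of stromal and myeloid cells. It had 13 and 17 counts under the WT label against 2 and 0 under the KO label. That was 13.7-fold fewer per total, with an interval of 3.47 to 118 that covers counting error only. By edgeR the log2 fold change of Ltbr was −3.64 (SE 0.86, adjusted p = 0.179), and DESeq2 gave it no adjusted p. With 1 library left out the value ran from −6.90 to −2.66. By limma it was −0.40 on log2(FPKM + 1) and −1.88 on log2(FPKM + 0.1). The summed myeloid markers, 4.92 and 9.71 CPM against 6.32 and 6.30 CPM, overlapped between labels. The stromal and endothelial sum, nearly all Pecam1, was 37.0 and 31.2 CPM against 18.0 and 19.0 CPM. The part of either in the Ltbr counts was not tested. The most counted of this list, Tnfrsf10b and Relt, had log2 fold changes of 0.15 and 0.06.

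Of 16 receptors of the SLAM and CD2 families and other T cell coreceptors, all were tested and 0 passed by edgeR or DESeq2; 1 was higher and 2 lower before adjustment (p under 0.05), beside 5.7% and 7.23% of all genes. The median was −0.16, and in 10 of 16 both KO-labelled libraries lay below both WT-labelled ones, beside 23.3% of all genes. Cd5 and Cd6, the most counted, had log2 fold changes of −0.15 and −0.12. Slamf1 had 17.1 and 11.3 CPM under the WT label against 22.5 and 25.5 CPM under the KO label, a log2 fold change of 0.76 (SE 0.23, adjusted p = 0.251, edgeR) that passed without labelled WT replicate 1 (1.09, adjusted p = 0.0278) and was 0.49 without labelled WT replicate 2 (adjusted p = 0.359). Slamf6 and Cd7 had log2 fold changes of −0.50 and −0.79.

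Downstream of CD28 and ICOS, 22 signalling genes were all tested, with 8 higher, 14 lower, a median of −0.04 and 0 calls by edgeR or DESeq2. Before adjustment (p under 0.05), 3 were higher and 3 lower, beside 5.7% and 7.23% of all genes. Malt1, which encodes a protease of the NF-kappaB pathway, had a log2 fold change of 0.42 (SE 0.16, adjusted p = 0.356, edgeR). Grap2, which encodes the adaptor GADS, was at −0.31 (adjusted p = 0.323). The most counted genes of the list were Pik3cd, the leukocyte PI3K catalytic subunit, at −0.28, and the kinase Lck at −0.30. Pik3cd was at −0.53 without labelled KO replicate 1 and at −0.05 without labelled KO replicate 2.

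Downstream of the TNF receptors, 23 genes of TRAF signalling were tested, with 11 higher, 12 lower, a median of −0.01 and 0 calls by edgeR or DESeq2. Before adjustment (p under 0.05), 2 were higher, beside 5.7% of all genes, and 0 lower, beside 7.23%. Traf6 had 113 and 98.8 CPM under the WT label against 138 and 140.4 CPM under the KO label, a log2 fold change of 0.40 (SE 0.11, adjusted p = 0.238, edgeR). Traf4 was at 0.26 and Tab3 at 0.35. Nfkbia, the inhibitor of NF-kappaB that NF-kappaB itself induces and, with Traf6, the most counted of the list, was at −0.04.

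Of 12 genes tied to CD69 and CD44, which act in trafficking and adhesion, all were tested and 0 passed by edgeR. The log2 fold change was positive in 1 and negative in 11, beside 51.9% negative among all genes, and the median was −0.36. In 10 both KO-labelled libraries lay below both WT-labelled ones, beside 23.3% of all genes. Before adjustment (p under 0.05), 7 were lower, beside 7.23% of all genes, and DESeq2 called 3, Ccr7, Klf2 and Selplg, beside 2.09%. S1pr1, the exit receptor that CD69 binds, had 27.8 and 25.3 CPM under the WT label against 15.8 and 17.1 CPM under the KO label, a log2 fold change of −0.69 (SE 0.16, adjusted p = 0.164, edgeR). Its activator Klf2 was at −0.81 (SE 0.17, adjusted p = 0.146 by edgeR and 0.0293 by DESeq2) and the homing receptor Ccr7 at −0.75 (SE 0.15, adjusted p = 0.121 by edgeR and 0.000897 by DESeq2). Ccr7 passed in edgeR with no low-count filter (adjusted p = 0.0332), and its log2 fold change ran from −0.91 to −0.60 with 1 library left out. Msn, which encodes moesin, the linker of CD44 to actin and the most counted gene of the list, had a log2 fold change of −0.28.

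**Figure D5:**
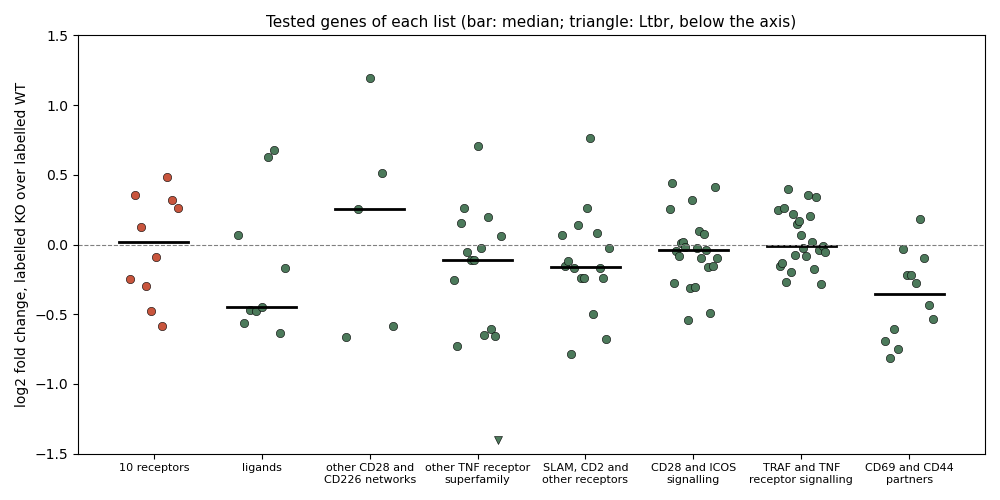
Log2 fold changes, labelled KO over labelled WT (y axis), of the tested genes among the 10 receptors (red) and 7 lists of related genes (green), with a black bar at each median. The 10 receptors lie around their median of 0.02, the genes tied to CD69 and CD44 mostly below 0 with a median of −0.36, and the triangle marks Ltbr, whose value lies below the axis.

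OX40, GITR, ICOS and CTLA-4 are also abundant on regulatory T cells, so the marks of those cells are given beside them. Foxp3, their defining factor, had 16 and 12 counts under the WT label against 31 and 19 under the KO label, and Cd4 39 and 80 against 133 and 74, while Icos had at least 1732 counts in every library. All 8 genes of the CD4 and regulatory T cell list were tested, with a median log2 fold change of 0.36. Of these, 6 were higher and 2 lower, beside 48.1% and 51.9% of all genes. By edgeR 0 passed, beside 0.207% of all genes. Before adjustment (p under 0.05), 2 were higher and 2 lower, beside 5.7% and 7.23%, and DESeq2 called 2, beside 2.09%. These were Ccr8, with a log2 fold change of 1.80 (adjusted p = 0.129 by edgeR and 0.00708 by DESeq2), and Cxcr5, with −1.25 (adjusted p = 0.0502 by edgeR and 2.6e-07 by DESeq2). None of the 8 was at 0 in all libraries. The list summed to 98.3 and 106 CPM under the WT label against 86.4 and 73.9 CPM under the KO label. Without its most counted gene, Cxcr5, the sum was 44.2 and 41.5 against 59.6 and 50.7 CPM, higher in both KO-labelled libraries. The part of these cells in the receptor values was not tested.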

How the data were processed

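The deposited table gives counts per gene for CD8+ T cell libraries, whole numbers that per the file headers are not normalized. FPKM, the other unit used here (for levels per length), were deposited by the authors beside them. The submitters' processing notes name kallisto and GRCm38 with no version or role; how reads were counted, and whether by strand, is not stated in these sources. Each column was joined to its sample through the description code. No use was made of 8 further value columns.

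Counts were filtered by filterByExpr, normalized with TMM factors and compared between labels (KO-labelled over WT-labelled, two-sided) by edgeR 4.0.16 in R 4.3.3, using its quasi-likelihood test with Benjamini-Hochberg adjustment over 13528 genes and a threshold of 0.05. CPM use the same factors. The common biological coefficient of variation came to 15.9%. The standard error is the log2 fold change over the square root of F. Alternatives were DESeq2 1.42.0, RLE scaling, library totals, 2 other filters, limma 3.58.1 on log2(FPKM + 1) and log2(FPKM + 0.1), the replicate number as a block, and each library left out. The labels call the samples biological replicates without saying what was replicated, so p values measure the spread between these libraries. Intervals and limits from counts (3 counts for a count of 0) cover counting error only.

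The 10 receptors and all lists were chosen with earlier results of these data known. Of each of 7 related lists, the genes past the threshold, or else the 3 with the smallest unadjusted p and the 2 most counted, are named, and every ligand. A gene that this rule selects is not reported here. Selected others (Tigit, Foxp3, Cd4, Cxcr5, Ncr1, Klrb1c, Gm16008, Cd8a, Pecam1, Ighm, Eomes, Ccr8, Selplg) were chosen after their values were seen.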

Additional observations from a re-analysis of the deposited data

How the results depend on the processing

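Of 120 values of the 10 receptors' log2 fold changes over 12 alternatives, 116 kept their sign and their side of the threshold. The sign changed in 3, each near 0: with 1 library left out Cd44 ran from −0.0047 (without labelled KO replicate 2) to 0.52, Cd69 from −0.0061 (without labelled WT replicate 2) to 0.74, and Tnfrsf1b from −0.17 to 0.00045 (without labelled WT replicate 2). Cd27 ran from −0.81 (without labelled WT replicate 2, where it passed) to −0.30, so the number of receptors called was 0 or 1 with 1 library left out and 0 in the other alternatives. The number of genes called over the whole table was 28, and 277 with DESeq2, 146 with no low-count filter, 51 with a mean of at least 1 CPM, 5 and 4 with limma on log2(FPKM + 1) and log2(FPKM + 0.1), 8 to 304 with 1 library left out, and 123 with the replicate block. The labels do not say whether the replicate numbers pair the samples. Same-numbered libraries' deviations correlated at −0.17 across genes, which with 2 libraries per label cannot decide it. The block called none of the 10 receptors. Of the related genes named, the block changed the call of Btla alone, to 1.18 (adjusted p = 0.0146, edgeR). Fits without 1 library assume that the lone library of its label varies as the other pair does. Whether such fits passed the threshold is given for some genes only, and not for Ccr7, Ctla4 or Ppm1k. Of the related genes named, those whose sign changed ran, with 1 library left out, from −0.67 to 0.65 for Cd80 (also −0.36 without labelled WT replicate 2), −0.996 to 0.0066 for Cd86, −0.35 to 0.035 for Pvr, −0.060 to 0.18 for Relt and −1.17 to 0.018 for Tnfsf9. For Nfkbia it changed to 0.12 without labelled WT replicate 1, and to 0.05 if labelled KO replicate 1 was dropped. Among those that kept their sign but moved by over 1.5 times, Lck ran from −0.44 to −0.17, Malt1 from 0.19 to 0.62, Slamf6 from −0.75 to −0.20, Cd96 from −0.84 to −0.27, Tnfrsf21 from 0.38 to 0.98, Tnfrsf26 from −0.80 to −0.38, Tnfrsf10b from 0.00 to 0.30, Cd5 from −0.23 to −0.07 and Tnfsf4 from −1.09 to −0.05. Likewise Tigit ran from 0.21 to 0.76, Cd70 from −1.07 to −0.31, Icosl from −0.66 to −0.31, Traf6 from 0.31 to 0.50, Traf4 from 0.19 to 0.33 and Tab3 from 0.25 to 0.45. Grap2 ran from −0.38 to −0.23, Msn from −0.35 to −0.21, Foxp3 from 0.46 to 1.36 and Cd4 from 0.40 to 1.37. The cause was not tested.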
